A study of Mus musculus with 28 samples.

Results

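The Egr factors and the Nab corepressors are the 6 mouse genes Egr1, Egr2, Egr3, Egr4, Nab1 and Nab2, out of 22919 genes in each of the 7 comparison tables that the authors deposited. They were chosen by gene name, as the complete set of Egr and Nab genes, and with their responses in these comparisons already known. The log2 changes, standard errors (SE) and adjusted p-values given for them therefore describe these genes and are not independent evidence for their behaviour. All 6 had adjusted p-values in every table, so none was lost to a filter on low counts.

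EGR proteins are zinc finger transcription factors that bind GC-rich sites, and in neurons their genes belong to the immediate early genes, whose transcription starts within minutes of synaptic activity without new protein synthesis. Calcium entry acts on them through serum response factor with its ternary complex partners and through CREB. NAB1 and NAB2 bind EGR1, EGR2 and EGR3 and repress their activity, while EGR4 lacks the region that NAB proteins bind. EGR factors in turn activate the Nab2 gene, which closes a negative feedback loop.

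Nascent RNA was measured by Bru-seq, a method that sequences only the RNA made during a brief pulse of bromouridine. The cultures came from forebrain (pooled cortices and hippocampi) of CD1 embryos at embryonic day 18, held neurons, astrocytes and oligodendrocyte precursor cells, and were infected at 14 days in vitro with a lentivirus for a control hairpin (shCtrl) or for one that targets Rai1 (shRai1). On day 17 they were given water as vehicle, 1 µM tetrodotoxin (TTX, which blocks sodium channels and silences the network) or 20 µM bicuculline (BIC, which blocks inhibitory GABA-A receptors and raises activity) for 4 hours, with 2 mM bromouridine in the last 20 minutes. The 16 libraries formed 6 groups of 3, except that shCtrl vehicle had 2 (replicates 1 and 2) and shCtrl BIC had 2 (replicates 2 and 3). Every culture thus carried a lentivirus, and no group was uninfected. In such mixed cultures, fewer cells of a type and less RNA per cell cannot be told apart. Another 12 samples, from ChIP-seq, are not used here.

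All values are summaries by the authors, without values per library, and the depth of single libraries is unknown. In the pooled FPKM of shCtrl vehicle all 8 neuronal markers were between 24.5 (Rbfox3) and 152 (Tubb3), the 6 astrocyte markers reached 81.7 (Gfap), the 7 oligodendrocyte-lineage markers reached 70.9 (Olig1), and the 4 endothelial markers stayed at or below 0.433. Summed over each list, vehicle, TTX and BIC had 594, 524 and 590 FPKM for the neuronal markers, 195, 159 and 148 for the astrocyte markers and 190, 163 and 188 for the oligodendrocyte lineage. The targeted gene did not check the arm labels: the log2 change of Rai1 in shRai1 against shCtrl was 0.16 in vehicle (SE 0.073), -0.12 in TTX (SE 0.064) and 0.03 in BIC (SE 0.073) in the authors' deposited tables, with adjusted p-values of 0.357 or above. Bru-seq reads newly made RNA, so these values do not give the amount of mature Rai1 mRNA or of its protein. Directions between the arms rest on the labels.

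The 4 Egr genes are short and Nab1 is not. In the coordinates of the authors' FPKM table, for which the submitters' processing notes name the mm9 build, Egr2 spans 4320 bases on chromosome 10 (67000617 to 67004936), Egr3 5169 bases on chromosome 14 (70477252 to 70482420) and Egr4 2421 bases on chromosome 6 (85461116 to 85463536). Egr1 spans 3750 bases on chromosome 18. Nab1 spans 44600 bases on chromosome 1 (52512693 to 52557292). Nab2 is listed on chromosome 10 (127080042 to 127103759) with an interval of 23718 bases that it shares with Stat6, against 5786 bases for Nab2 in the RefSeq annotation of GRCm38.p6. No other listed gene overlapped the other 5 members. The shared interval makes Nab2 uncertain, and Stat6 itself had a mean normalized count of 8.94, against 174 for Nab2. The length behind the FPKM of Nab2 is also unclear. Mean FPKM times listed length, per mean normalized count, was 2128 for Nab2, against 358 (Egr1) to 425 (Nab1) for the other 5 members. With the RefSeq length of 5786 bases it was 519 for Nab2. The place of Nab2 against Nab1 by FPKM therefore depends on the length used.

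Per length, the Egr genes stood high among nascent transcripts of the control cultures and the Nab genes did not. Egr1, which is required for late phases of synaptic plasticity, stood in shCtrl vehicle at a pooled FPKM of 1009 (bounds of the file, 665 to 1352), rank 244 of 23944 entries, where the median entry had 4.09. Under TTX it stood at 201 (155 to 248), below the bounds of both other conditions, and under BIC at 581 (421 to 740), which overlapped vehicle. Egr4, the most divergent member of the family, followed with 330 in vehicle (246 to 413), 44.8 under TTX (34.2 to 55.5) and 223 under BIC (173 to 274). Its bounds did not overlap between TTX and either other condition, and they did overlap between vehicle and BIC.

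Egr3, known for its role in muscle spindle development and in learning, had 225 FPKM in vehicle (bounds 168 to 283), 49.1 under TTX (38.1 to 60.2) and 59.6 under BIC (46.2 to 73.0). Both drugs therefore left it far below vehicle and with overlapping bounds. Egr2, the factor that drives myelination by Schwann cells, had 90.4 FPKM in vehicle (68.8 to 112), 17.3 under TTX (12.8 to 21.8) and 35.1 under BIC (26.9 to 43.3), and the 3 intervals did not overlap. In vehicle the order was Egr1, Egr4, Egr3, Egr2, Nab2, Nab1, and only Egr4 with Egr3 and Nab2 with Nab1 had overlapping bounds among neighbours. In TTX, Egr3 and Egr4 lay within each other's bounds, as did Egr2 and Nab2, and in BIC the bounds of Nab1 and Nab2 overlapped.

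The Nab genes moved within a narrow range of pooled FPKM. Nab1 had 9.13 in vehicle (bounds 6.74 to 11.5), 7.18 under TTX (5.19 to 9.17) and 15.2 under BIC (11.5 to 18.9). Nab2 had 16.1 in vehicle (11.4 to 20.7), 16.3 under TTX (11.4 to 21.2) and 12.04 under BIC (8.10 to 16.0). Only Nab1 between BIC and the other conditions had bounds that did not overlap. The summed FPKM of the 4 Egr genes was 181 times that of Nab1 in vehicle, 43.6 times in TTX and 59.2 times in BIC.

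**Figure D1:**
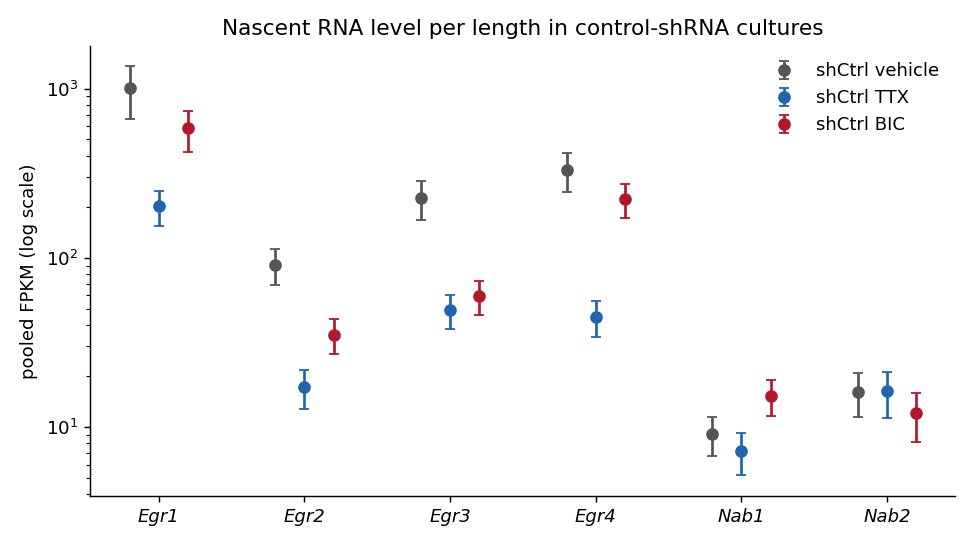
Pooled FPKM (log scale) of the 6 genes in control-shRNA cultures under vehicle, TTX and BIC; points are the authors' single value per condition and bars the bounds in their table. Egr1 is highest in each condition (1009, 201 and 581 FPKM), Egr3 is similarly low under TTX and BIC (49.1 and 59.6), and the Nab genes stay between 7.18 and 16.3.

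The composition of the family shifted with the drug. Egr1 supplied 61.0% of the summed Egr FPKM in vehicle, 64.4% in TTX and 64.6% in BIC. Egr3 supplied 13.6% in vehicle and 15.7% in TTX, but 6.63% in BIC. Egr4 went the other way, with 19.9% in vehicle, 14.3% under TTX and 24.9% under BIC. The summed level was 18.9% of vehicle in TTX and 54.4% in BIC. These shares are descriptions of single pooled values and were not tested.

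Promoter sequences are shown for the members matched in the RefSeq table of GRCm38.p6. A link between their motifs and the drug responses was not tested. Of the 6 members 4 matched (Egr2, Egr4, Nab1 and Nab2), and each run below is the 250 bases before a transcription start, 5′ to 3′ on the gene's strand. Egr1 and Egr3 are not shown. Capitals mark matches to the motifs searched on both strands, which were the CArG box that serum response factor binds, the CREB site TGACGTCA, its shorter form TGACG (which lies within the full site), the EGR site GCGNGGGCG and the TATA box TATAAA. Egr2 has 5 windows, and the one printed was chosen for its matches: it is the first of 3 overlapping windows that hold a CArG box with short CREB sites.
Egr2 (chr10:67537619-67537868, plus strand): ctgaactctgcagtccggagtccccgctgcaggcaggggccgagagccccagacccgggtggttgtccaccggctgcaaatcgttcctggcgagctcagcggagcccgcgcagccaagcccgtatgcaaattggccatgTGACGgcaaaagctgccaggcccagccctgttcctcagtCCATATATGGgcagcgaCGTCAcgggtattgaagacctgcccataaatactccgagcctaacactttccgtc
Egr4 (chr6:85513590-85513839, minus strand): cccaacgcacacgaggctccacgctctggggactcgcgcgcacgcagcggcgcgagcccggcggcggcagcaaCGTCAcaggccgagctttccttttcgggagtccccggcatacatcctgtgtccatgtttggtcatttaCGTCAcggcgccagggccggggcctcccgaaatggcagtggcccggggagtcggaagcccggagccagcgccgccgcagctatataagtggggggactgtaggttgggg
Nab1 (chr1:52500449-52500698, minus strand): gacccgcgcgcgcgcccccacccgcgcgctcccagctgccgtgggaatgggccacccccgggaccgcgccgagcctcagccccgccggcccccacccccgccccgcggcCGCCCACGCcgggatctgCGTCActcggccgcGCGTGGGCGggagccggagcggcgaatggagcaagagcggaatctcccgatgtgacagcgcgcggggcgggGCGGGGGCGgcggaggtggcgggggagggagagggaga
Nab2 (chr10:127666704-127666953, minus strand): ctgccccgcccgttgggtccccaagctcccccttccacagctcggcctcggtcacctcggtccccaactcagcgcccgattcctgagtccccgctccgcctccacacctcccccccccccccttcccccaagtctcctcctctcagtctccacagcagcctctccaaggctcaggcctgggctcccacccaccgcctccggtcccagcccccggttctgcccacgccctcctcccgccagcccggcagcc

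The Egr2 window printed held 1 CArG box, starting 72 bases before the start site, and 2 short CREB sites at 111 and 55 bases. Of the other Egr2 windows, the one starting at 67535249 held none of the motifs, and the one starting at 67537316 held another CArG box and no short CREB site. Over 32851 windows of the same length, 1.47% held a CArG box and 17.8% a short CREB site, and since the Egr2 window was picked for these motifs, nothing is read from those shares for Egr2. Egr4 held 2 short CREB sites, at 177 and 109 bases, and no CArG box. Nab1 held 3 EGR sites, at 141, 109 and 38 bases, where 4.70% of windows held at least 1, and 1 short CREB site at 123 bases. The Nab1 window was also rich in G and C, at 80.8% against a median window of 52.4%. The windows printed for Egr2 (61.6%), Egr4 (68.0%) and Nab2 (72.8%) lay above that median as well. Nab2 held none of the 5 motifs. The exact letters TGACGTCA of the full CREB site (1.55% of windows) and TATAAA of the TATA box (12.4%) were found in none of the 4 windows printed. Variants of these letters were not searched, such as the run tatataag near the end of the Egr4 window, so a TATA box of other letters is not excluded. These matches are descriptions of letters, and no binding was measured here.

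Silencing of the network lowered all 4 Egr genes and Nab1. Of the 6 members, 5 were called lower under TTX in shCtrl, meaning an adjusted p under 0.05 in the deposited table of the authors, and 0 were higher, where 14.9% of the 15464 genes with an adjusted p were lower and 11.8% higher. Since the members were chosen with this comparison known, nothing is read from that difference. Egr4 changed most, by -2.68 (SE 0.24, adjusted p 3.08e-27), which is 15.6% of vehicle (95% interval 11.3% to 21.6%). Egr2 changed by -2.44 (SE 0.17, adjusted p 1.92e-43), Egr1 by -2.35 (SE 0.13, adjusted p 3.58e-68) and Egr3 by -2.11 (SE 0.20, adjusted p 6.50e-25) in the authors' deposited table. By p-value Egr1 stood at rank 22 of 21192 genes. The 95% intervals of the 4 Egr genes overlapped one another, and the differences between them were not tested.

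Nab1 also fell, and its 95% interval lay above those of the 4 Egr genes. In shCtrl the authors' deposited table gave it a change of -0.91 (SE 0.11, adjusted p 1.69e-15), or 53.2% of vehicle (95% interval 45.9% to 61.6%). The pooled FPKM gave a smaller log2 ratio of -0.35 for Nab1, within overlapping bounds, whereas for the 4 Egr genes the FPKM ratios of -2.20 to -2.88 lay close to the deposited changes. Nab2 had a change of 0.14 (SE 0.17, adjusted p 0.626) in the authors' deposited table, with a 95% interval from -0.20 to 0.48, so a change of the size of that in the Egr genes lies outside its interval. Stat6, which shares its interval, had a change of 0.04 (SE 0.41). In the same comparison 4 of 8 neuronal, 3 of 6 astrocyte and 4 of 7 oligodendrocyte-lineage markers were lower, and 1 neuronal marker (Rbfox3, 0.42) and 1 oligodendrocyte-lineage marker (Mbp, 0.49) were higher. The medians were -0.21, -0.20 and -0.50, and their part in the Egr values was not tested.

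In the knockdown arm the same 5 members were lower under TTX, against 16.8% of genes lower and 13.7% higher in that comparison. The authors' deposited table gave -2.17 for Egr4 (SE 0.22, adjusted p 1.03e-21), -2.00 for Egr2 (SE 0.15, adjusted p 3.81e-36), -1.83 for Egr1 (SE 0.12, adjusted p 2.39e-52) and -1.82 for Egr3 (SE 0.18, adjusted p 4.55e-23). Nab1 changed by -0.76 (SE 0.095, adjusted p 5.97e-14) and Nab2 by -0.14 (SE 0.15, adjusted p 0.553). Egr4 was thus again the member with the largest change and Nab2 the one without a call. The oligodendrocyte-lineage markers had the opposite sign from shCtrl here, with 4 of 7 higher, 0 lower and a median of 0.29 (Pdgfra 1.10). Of the neuronal markers 3 of 8 were lower (median 0.01) and of the astrocyte markers 1 of 6 was higher and 1 lower (median -0.14), 1 of 4 endothelial markers was higher, and their part in the Egr values was not tested.

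BIC also lowered 3 of the 4 Egr genes, and here the 4 genes spread apart. Under BIC in shCtrl the authors' deposited table listed 4 members lower (Egr1, Egr2, Egr3 and Nab2) and 1 higher (Nab1), against 17.0% of 16692 genes lower and 17.4% higher. Egr3 changed by -1.97 (SE 0.22, adjusted p 2.09e-18), Egr2 by -1.49 (SE 0.18, adjusted p 1.27e-14) and Egr1 by -0.91 (SE 0.15, adjusted p 5.96e-09) in the authors' deposited table. As shares of vehicle these were 25.6% (95% interval 19.1% to 34.3%), 35.5% (27.7% to 45.6%) and 53.3% (43.7% to 64.9%). Egr4 had -0.61 (SE 0.26, adjusted p 0.0518), which missed the threshold, and the adjusted p ranged from 0.0410 to 0.0762 over the alternatives. The interval of Egr3 (-2.39 to -1.54) did not overlap those of Egr1 (-1.20 to -0.62) or Egr4 (-1.11 to -0.10), although the genes come from the same libraries and the differences between them were not tested.

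The Nab genes went apart under BIC. Nab1 rose by 0.58 in shCtrl (SE 0.12, adjusted p 4.69e-06) in the authors' deposited table, to 150% of vehicle (95% interval 128% to 175%). Nab2 changed by -0.66 (SE 0.20, adjusted p 0.00393), to 63.4% of vehicle (48.4% to 83.1%), while the log2 ratio of its pooled FPKM was -0.42. Stat6 had 0.24 in the same table (SE 0.41, adjusted p 0.707), with an interval (-0.57 to 1.06) that holds both directions, while the log2 ratio of its pooled FPKM was -0.42, as for Nab2, between overlapping bounds. Of the markers, 4 of 8 neuronal were higher and 3 lower, 1 of 6 astrocyte and 2 of 7 oligodendrocyte-lineage were lower, with medians of 0.35, -0.10 and -0.25. Of the 6 microglial markers 3 had an adjusted p, of which 2 were higher (median of the 6, 0.37), and their summed FPKM was 31.6 against 21.9 in vehicle. Of 3 Schwann cell markers 1 was lower, and of 4 endothelial markers 0 were called (3 with an adjusted p, 0 with an unadjusted p under 0.05 by DESeq2). For all these lists their part in the values of the Egr and Nab genes was not tested.

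With the shRNA against Rai1, BIC gave the same calls: 4 members lower and 1 higher, against 21.3% of 17510 genes in each direction (21.3% lower and 21.3% higher). The authors' deposited table gave -1.71 for Egr3 (SE 0.18, adjusted p 7.85e-21), -1.13 for Egr2 (SE 0.15, adjusted p 6.40e-13) and -0.46 for Egr1 (SE 0.12, adjusted p 0.000308). Egr4 had -0.04 (SE 0.21, adjusted p 0.925), or 97.6% of vehicle with a 95% interval from 73.0% to 131%. Nab1 rose by 0.72 (SE 0.092, adjusted p 6.77e-14) and Nab2 changed by -0.78 (SE 0.16, adjusted p 6.69e-06). The order Egr3, Egr2, Egr1, Egr4 from the largest fall to the smallest change was that of shCtrl. Here 4 of 8 neuronal markers were higher and 3 lower, 1 of 6 astrocyte markers was higher 1 of 7 oligodendrocyte-lineage markers and 1 of 3 Schwann cell markers lower and 1 of 6 microglial markers higher, and their part in these values was not tested.

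**Figure D2:**
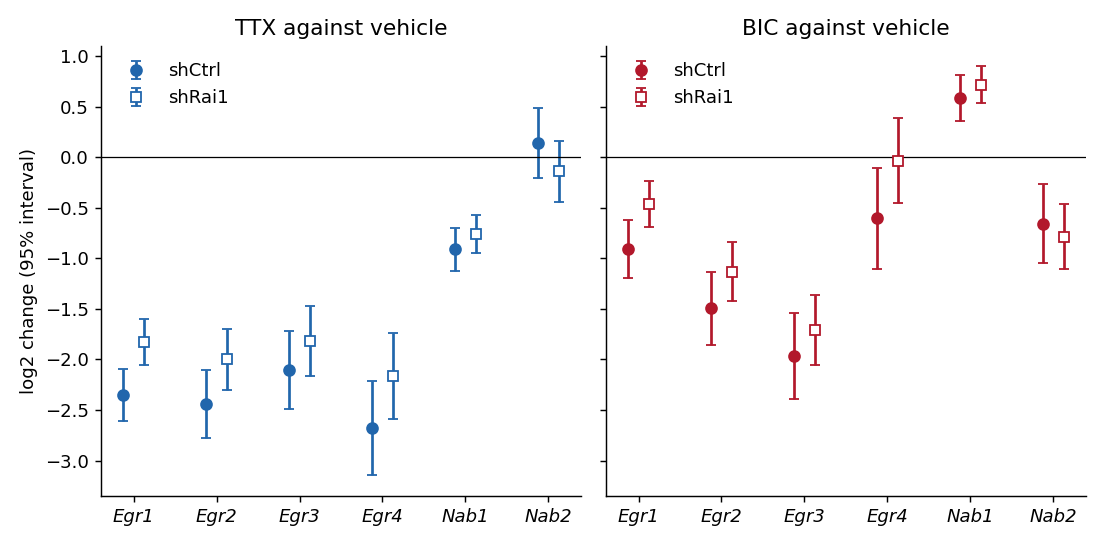
Deposited log2 change (y axis) of each gene under TTX (left) and BIC (right) against vehicle, in shCtrl (filled circles) and shRai1 (open squares); bars are 95% intervals from the deposited standard errors. Under TTX the 4 Egr genes lie between -2.68 and -1.82, while under BIC they range from -1.97 (Egr3) to -0.04 (Egr4) and Nab1 lies above 0.

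How far the drugs differed depended on the gene. BIC and TTX were compared with the same vehicle libraries, so the difference of their log2 changes is given with the largest SE it can have and with no p-value. Egr3 differed between the drugs by less than that error, with 0.14 in shCtrl (SE at most 0.29) and 0.11 in shRai1 (at most 0.25). Egr4 was 4.21 times higher under BIC than under TTX in shCtrl (log2 difference 2.07, SE at most 0.35) and 4.38 times in shRai1 (2.13, at most 0.30). Egr1 was higher by 1.44 (at most 0.20) and 1.36 (at most 0.17) in the arms, and Egr2 by 0.95 (at most 0.25) and 0.87 (at most 0.22). Nab1 was near Egr1 in this difference, at 1.49 (at most 0.16) and 1.48 (at most 0.13), and Nab2 alone was lower under BIC, at -0.80 (at most 0.26) and -0.65 (at most 0.22). Against vehicle, Nab1 and Egr1 went opposite ways under BIC, with 0.58 and -0.91 in shCtrl.

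The deposited errors were wide for the Egr genes. Their SEs were 1.38 to 2.58 times the median SE of genes with a mean normalized count within a factor of 2 of their own, and Egr4 had the highest ratios. For Nab1 and Nab2 the ratio was 1.06 to 1.16. Egr4 had a mean normalized count of 1164 and Egr2 of 449, so the gene with the wider errors was not the one with the lower count.

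The other immediate early genes gave a different picture under BIC. Of 20 such genes (Egr genes left out), the authors' deposited table for TTX in shCtrl had 18 lower and 1 higher, with a median log2 change of -1.85 against -2.39 for the 4 Egr genes and -0.01 for the 12333 genes whose mean normalized count was 50 or more. Over all genes with an adjusted p, 14.9% were lower and 11.8% higher in that comparison. Under BIC in shCtrl 10 were higher and 3 lower, with a median of 0.52 against -1.20 for the Egr genes and -0.04 for those 12333 genes. The shares over all genes were 17.4% higher and 17.0% lower, so nothing is read from the count of 3 lower genes. The 3 lower ones were Btg2 (-0.55, SE 0.22), Ier2 (-0.70, SE 0.26) and Klf10 (-1.07, SE 0.17), of which Klf10 was the 1 gene higher under TTX (0.39, SE 0.14). In shRai1 16 of the 20 were higher and 1, Klf10, lower under BIC, against 21.3% of all genes in each direction. Arc, which encodes a synaptic regulator of AMPA receptors and is a known EGR target, had -2.53 under TTX (SE 0.23, adjusted p 5.07e-26) and 0.78 under BIC (SE 0.25, adjusted p 0.00677) in shCtrl.

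**Figure D3:**
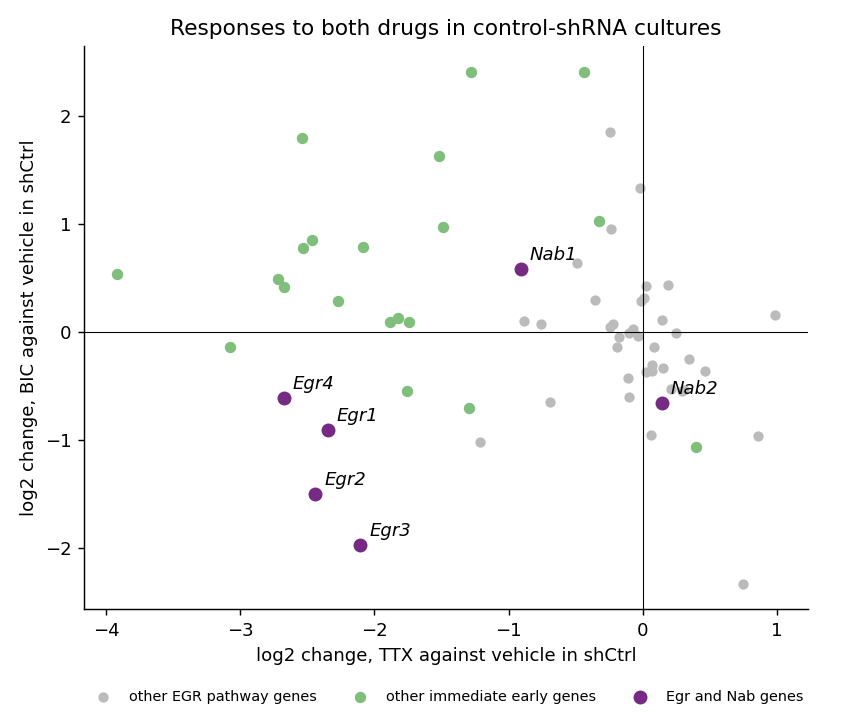
Deposited log2 changes in shCtrl under TTX (x axis) and BIC (y axis) for the 6 genes (purple), 20 other immediate early genes (green) and the remaining genes of an EGR pathway list (grey); both axes share the vehicle libraries. Egr1, Egr2, Egr3 and Egr4 lie below 0 on both axes, whereas most of the immediate early genes lie left of 0 and above it.

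Genes around the EGR factors were read from a list of 39, in 4 roles. Of the 39, 36 had an adjusted p under TTX in shCtrl, where the authors' deposited tables had 7 higher and 7 lower, and 38 under BIC, with 6 higher and 11 lower. Over all genes 11.8% were higher and 14.9% lower under TTX, and 17.4% and 17.0% under BIC, so nothing is read from the counts of the list. Their medians were -0.01 under TTX and -0.03 under BIC, next to -0.01 and -0.04 for all genes whose mean normalized count was 50 or more. Among 9 upstream genes, Srf, which encodes serum response factor, had -1.21 in the authors' deposited tables under TTX (SE 0.11, adjusted p 1.15e-25) and -1.02 under BIC (SE 0.12, adjusted p 4.24e-15). Of the genes for its ternary complex partners, Elk4 changed by -0.76 under TTX (SE 0.11) and had 0.08 under BIC (SE 0.12, adjusted p 0.679), and Elk3 changed by -0.49 (SE 0.16) and 0.64 (SE 0.17). Mkl1, which encodes an actin-regulated coactivator of serum response factor, rose by 0.44 under BIC (SE 0.072).

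Of 4 cofactor genes, Chd4, which encodes a chromatin remodeller of the NuRD complex that NAB2 recruits, changed in the authors' deposited tables for shCtrl by 0.31 under TTX (SE 0.080, adjusted p 0.00105) and by -0.53 under BIC (SE 0.092, adjusted p 6.71e-08). That is the order of Nab2, whose value under TTX did not pass. Of 4 genes for relatives that bind GC-rich sites, 0 passed under TTX and 1 was higher under BIC. Among 22 known or proposed targets, of which 19 had an adjusted p under TTX and 21 under BIC, 3 were higher and 4 lower under TTX, and 3 higher and 5 lower under BIC. Cacna1h, a T-type calcium channel gene, had 0.86 under TTX (SE 0.098) and -0.96 under BIC (SE 0.12), and Ace, the gene for angiotensin-converting enzyme, had 0.75 (SE 0.21) and -2.33 (SE 0.28). Pdgfa, a growth factor gene, fell by 0.88 under TTX (SE 0.15). Rrad (1.85, SE 0.41) and Fasl (1.33, SE 0.40) rose under BIC at low mean normalized counts of 9.76 and 11.7. No gene of the list passed in a knockdown comparison or an interaction (DESeq2 for the former, a Wald test for the latter), where 1 to 4 of the 39 had an unadjusted p under 0.05. In the knockdown comparison in vehicle only 32 of the 39 had an adjusted p, and in the others all 39 did. Over all genes 0.73% were lower in that comparison, and 0.00944% to 0.943% passed in the others, so nothing is read from the absence of calls.

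In vehicle, Egr1 was lower with the shRNA against Rai1, and the other 3 Egr genes had values below 0 that did not pass. Of the 6 members, 1 was called lower in the authors' deposited table, where 0.73% of 14237 genes were. Egr1 changed by -0.54 (SE 0.13, adjusted p 0.0126), to 68.6% of shCtrl (95% interval 57.4% to 82.0%), and its adjusted p ranged from 0.0109 to 0.0178 over the alternatives. At a threshold of 0.01 this call is lost, and 0 members pass. Egr4 had -0.51 (SE 0.24, adjusted p 0.379), Egr2 -0.43 (SE 0.16, adjusted p 0.234) and Egr3 -0.37 (SE 0.19, adjusted p 0.479) in the authors' deposited table. Their intervals (-0.97 to -0.05, -0.75 to -0.11 and -0.75 to 0.02) hold the value of Egr1, so a fall of that size lies within the errors of the other 3 genes. Nab1 had -0.08 (SE 0.11, adjusted p 0.845) and Nab2 0.16 (SE 0.17, adjusted p 0.792).

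The rest of the immediate early genes lay on the same side in vehicle: the median log2 change of the 20 was -0.39, with 0 passing (DESeq2, 10 with an unadjusted p under 0.05), against -0.47 for the Egr genes and -0.01 for the 12333 genes. Markers of the oligodendrocyte lineage moved in the same comparison, with 4 of 7 lower, a median of -0.73 and Pdgfra at -1.37 (SE 0.13), while 0 of 6 astrocyte markers (3 with an unadjusted p under 0.05) and 1 of 8 neuronal markers (higher) passed. The shCtrl vehicle group had 2 libraries. The part of these markers in the Egr values was not tested.

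Under TTX and BIC no such difference was detected. Of the 6 members 0 passed in each comparison of the arms (DESeq2, 0 with an unadjusted p under 0.05 in either), where 0.0283% and 0.00944% of 21192 genes passed. Egr1 had -0.02 in TTX (SE 0.12, 95% interval -0.25 to 0.21) and -0.09 in BIC (SE 0.13, -0.35 to 0.16) in the authors' deposited tables. The interval in vehicle was -0.80 to -0.29, which overlaps that in BIC. Over all 6 members the values ran from -0.12 (Nab2) to 0.07 (Nab1) in TTX and from -0.11 (Egr3) to 0.06 (Egr4) in BIC. Of the oligodendrocyte-lineage markers 1 of 7 was higher in TTX (median 0.38) and 1 of 7 lower in BIC (median -0.41).

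**Figure D4:**
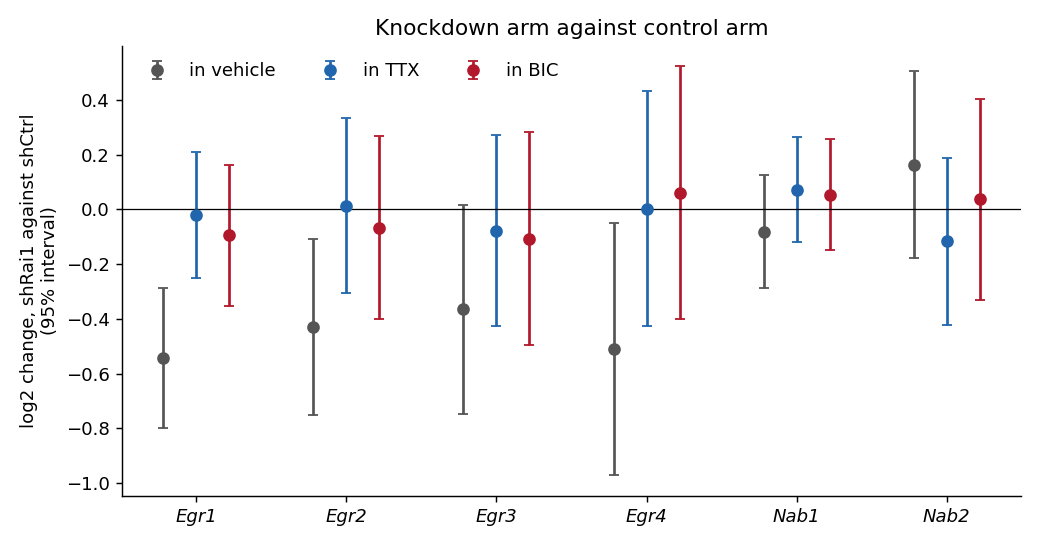
Deposited log2 change of shRai1 against shCtrl (y axis) for each gene in vehicle, TTX and BIC, with 95% intervals. The 4 Egr genes lie between -0.54 and -0.37 in vehicle and between -0.11 and 0.06 under the drugs, and Nab1 and Nab2 scatter around 0 in each.

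The difference between the arms in a drug response was computed as an interaction (shRai1 minus shCtrl). Of the 6 members 0 passed for TTX or BIC (Wald test with Benjamini-Hochberg adjustment over 18241 genes), where 0.943% and 0.0219% of genes passed, and 1 member, Egr1, had an unadjusted p under 0.05 for each drug. The interaction of Egr1 was 0.52 for TTX (SE 0.18, adjusted p 0.153, 95% interval 0.18 to 0.87) and 0.45 for BIC (SE 0.19, adjusted p 1.00, 0.08 to 0.81). For Egr4 it was 0.51 (SE 0.32, adjusted p 0.700) and 0.57 (SE 0.33, adjusted p 1.00), and for Egr2 0.44 (SE 0.23, adjusted p 0.573) and 0.36 (SE 0.24, adjusted p 1.00). Egr3 had 0.29 (SE 0.26) and 0.26 (SE 0.28), Nab1 0.15 (SE 0.14) and 0.14 (SE 0.15), and Nab2 -0.28 (SE 0.23) and -0.13 (SE 0.26), each with an adjusted p of at least 0.843. All 4 Egr genes lay above 0 for each drug, but the 2 interactions share the vehicle libraries of each arm. Of the oligodendrocyte-lineage markers 5 of 7 were higher in the TTX interaction (median 1.10) and 0 of 7 in that of BIC (median 0.16, Wald test, 2 with an unadjusted p under 0.05), and 1 of 8 neuronal markers, Rbfox3, was lower in that of TTX (-0.40, SE 0.090, adjusted p 0.00485). The 20 other immediate early genes had medians of 0.38 for TTX and 0.53 for BIC, with 0 passing and 7 and 8 at an unadjusted p under 0.05, next to -0.01 and 0.01 for the 12333 genes. For the markers, their part in the Egr values was not tested.

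The group levels can be placed on 1 scale, as a description. With shCtrl vehicle at 100%, Egr1 stood at 68.6% in shRai1 vehicle, at 19.6% and 19.4% in TTX and at 53.3% and 49.9% in BIC (shCtrl first). Egr4 stood at 70.2% in shRai1 vehicle, 15.6% and 15.7% in TTX and 65.7% and 68.5% in BIC. For Egr2 the values were 74.2%, then 18.4% and 18.6%, then 35.5% and 33.9%, and for Egr3 77.6%, then 23.2% and 21.97%, then 25.6% and 23.8%. Of these differences between the arms only that of Egr1 in vehicle passed, and no interaction did.

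**Figure D5:**
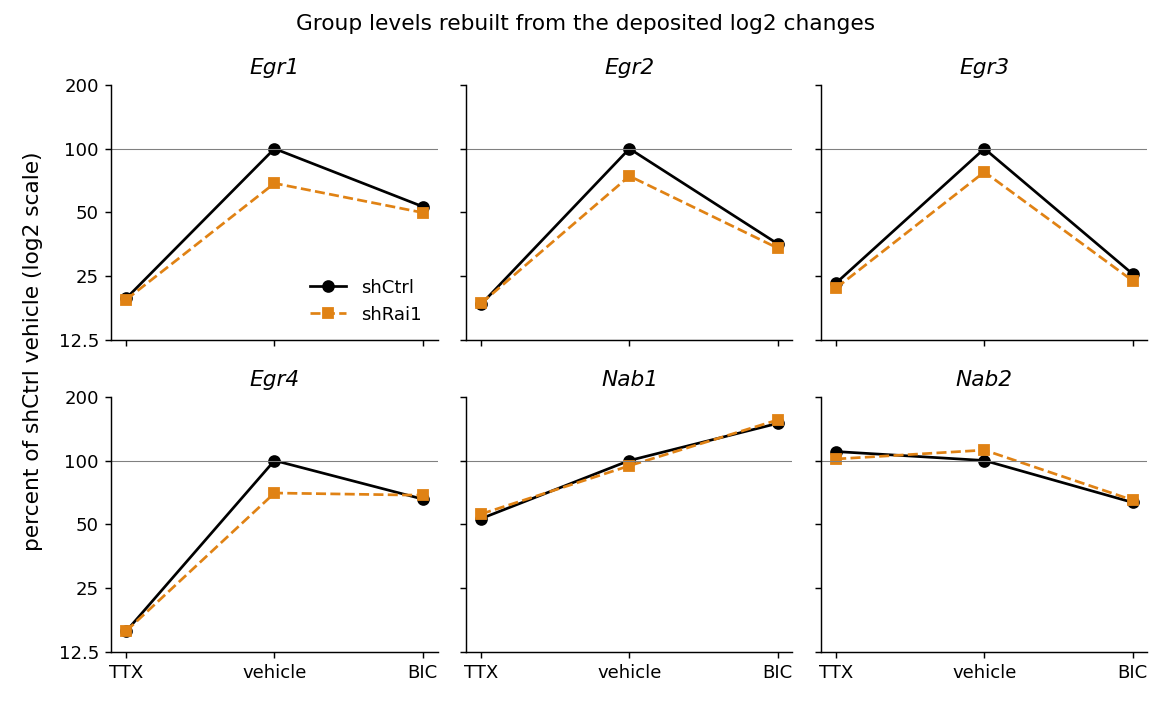
Level of each gene in the 6 groups as percent of shCtrl vehicle (log2 axis), rebuilt from the deposited log2 changes, for shCtrl (black circles) and shRai1 (orange squares). The 4 Egr genes stand at 68.6% to 77.6% in shRai1 vehicle, where the difference between the arms passed for Egr1 only, and no interaction passed for any of the 6 genes. Nab1 climbs from TTX to BIC in each arm, and Nab2 is lowest under BIC.

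The genes most like each member were sought among 12333 genes whose mean normalized count was 50 or more, by the root mean square (RMS) difference of the 6 centred log2 group levels. Closest to Egr1 was Dusp14, a phosphatase gene (RMS difference 0.14), followed by Gm5820 (0.19) and Hapln1, which encodes a link protein of the extracellular matrix (0.21). Egr2 was closest to Gm5820 (0.18), Rem2 (0.19) and the potassium channel gene Kcnv1 (0.25), and Egr3 to Pcp4l1 (0.23), Kcnv1 (0.27) and Egr2 (0.33). Egr4 was closest to Dlx1as (0.13), an antisense transcript whose counts are uncertain, to the protease gene Adamts15 (0.20) and to Ctgf (0.23). Within the family, Egr1 and Egr2 differed by 0.27 and Egr1 and Egr4 by 0.29, but Egr3 and Egr4 by 0.85. Nab1 was closest to Flrt2 (0.037), Tenm1 (0.042) and Nrn1 (0.046), and Nab2 to Mad1l1 (0.026), Rnf123 (0.032) and Pacsin1 (0.033). These RMS differences were smaller than those of the Egr genes. The group levels of the Nab genes also spanned less, and the measure depends on that span. With Pearson's correlation as the measure, 0 of the 3 genes were shared for any member.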

How the data were processed

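Bru-seq libraries from 16 cultures in 6 groups were compared. The submitters' processing notes name the mm9 build, TopHat2 2.1.0, Bowtie2 2.2.6 and DESeq2, without their roles; the version of DESeq2 and the counting step are not given in the sources used here. Per the file headers, the authors' 7 comparison tables hold a mean normalized count (a signal averaged over libraries after scaling), a log2 fold change with its standard error, a Wald score and p-values before and after adjustment. The authors' FPKM table holds, per the file headers, a single value for each condition and its bounds; its knockdown columns were not used as levels of a treatment, because their names go against the comparison tables, and entered the mean over all 6 conditions that selects genes for the interactions.

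The table for the knockdown in vehicle lacks gene names. Genes were named by unique mean counts (20107 of 21192 tested) and checked by closure of the log2 changes, to within 1e-09 for the members. Interactions were differences of deposited changes that share no library, with a two-sided Wald test (Python 3.11.15, scipy 1.17.1) and Benjamini-Hochberg adjustment over the 18241 genes that averaged 0.1 FPKM or more. The code was run on values simulated with normal errors at the deposited standard errors, which cannot show whether those errors are right. A call has an adjusted p under 0.05, and intervals are 95%. Depth per library is unknown. A planned comparison of protein sequences was not run.

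The members and lists were chosen with earlier results of these data known. Named genes were the members, at most 4 called genes a direction of the pathway list for each drug in shCtrl, those called in knockdown comparisons, the 3 genes most like each member, and Rai1; other immediate early genes and markers were named after their values were seen. Some items that this rule would name are not reported here. Starts are given 1-based, with deposited starts read as 0-based. Alternatives were other thresholds (0.01 and 0.1), other adjustment sets, centring on the median gene and another error for interactions.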

Additional observations from a re-analysis of the deposited data

How the results depend on the processing

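Of 47 alternatives for the counts of members called, 46 kept the count within 1.5 times, and 279 of 282 alternatives for single members kept their direction and their side of the threshold. Only centring altered the log2 changes, so the other alternatives could not turn a direction. At a threshold of 0.01 the count for shRai1 against shCtrl in vehicle was 0, since Egr1 has an adjusted p of 0.0126. Egr4 under BIC in shCtrl passed at a threshold of 0.1 and with adjustment over genes whose mean normalized count was 50 or more (adjusted p 0.0410). Centring on the median of those genes, which lay between -0.04 and 0.01, turned no called direction. Of the genes most like each member, 2 or 3 of 3 were shared when the minimum mean normalized count was 10. No paired analysis was possible because the files used hold no values per library, and leaving out a replicate was not run for the same reason. The groups of 2 libraries, shCtrl vehicle and shCtrl BIC, limit the comparisons that use them, and the weight of single libraries was not tested.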

Other observations

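The knockdown columns of the authors' FPKM table carry treatment names that differ from the comparison tables in these genes. In the column named for untreated knockdown cultures Egr1 was at 211 FPKM, a log2 ratio of -2.26 to the untreated control column, where the authors' deposited comparison gave -0.54. In the same column Egr4 was at 46.2 and Egr3 at 48.0 FPKM. These values lay near those of the control TTX column, at 201 for Egr1, 44.8 for Egr4 and 49.1 for Egr3. The column named for TTX had 507 FPKM for Egr1 and 218 for Egr4, next to 581 and 223 in the control BIC column. That named for BIC had 763 and 235, next to 1009 and 330 in the control vehicle column. Whether the names of the knockdown columns were exchanged was not tested.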
